A study of Mus musculus with 3 samples.

Results

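ET2 external tufted cells are the 471 nuclei that the deposited table of nuclei places in subcluster 6 of the projection neurons, out of 31703 nuclei listed for the olfactory bulb (OB) and 7504 listed in a projection neuron subcluster. They came from all 3 mice, with 69 nuclei from mouse 1, 315 from mouse 2 and 87 from mouse 3. The table gives numbers and no cell type. The names of the 6 other types below were given here from marker genes of the study, and the name ET2 likewise rests on marker genes. Of the 4 used here, Lhx1, Ebf3 and Uncx are among those by which the study marks the type, and Lhx1os was added from earlier results of these data. They were described against the 5875 nuclei of the 6 other projection neuron types that carry a name, namely the tufted type T1 (2128 nuclei), the external tufted types ET1 (703) and ET4 (883) and the mitral types M1 (686), M2 (1149) and M3 (326).

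The nuclei were taken from the OB of adult C57Bl/6 mice, all treated alike, and each mouse gave 1 library. In every mouse retroAAV-CAG-H2B-GFP, a virus carried back along axons that makes nuclei fluoresce from a broadly active promoter, had been injected into the piriform cortex and the anterior olfactory nucleus. A neuron therefore had to send an axon to, or take up virus near, an injected area to be sorted, and uninfected neurons of the same types were not sampled. Fluorescent nuclei were sorted, and the RNA of each was sequenced from its 3′ end in droplets, so that a unique molecular identifier (UMI) counts 1 RNA molecule that was caught. The deposited subclusters had been made from the same counts, so that the p-values compare a difference with the spread between the mice and do not test whether ET2 exists as a type.

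Tufted and mitral cells are the glutamatergic output neurons of the OB. Each receives input from the olfactory sensory axons of a glomerulus, and tufted cells, whose bodies lie nearer to the glomeruli, send shorter axons than mitral cells. External tufted cells lie at the edge of the glomerular layer, where they are known for rhythmic bursting and for exciting neighbouring cells. Lhx1 encodes a LIM homeodomain transcription factor and Uncx a paired-type homeodomain factor. Ebf3 encodes a factor of the early B-cell factor family, and Lhx1os is a long noncoding RNA transcribed away from Lhx1.

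Lhx1 (chr11:84518284-84525535, minus strand) and Lhx1os (chr11:84525660-84535831, plus strand) lie head to head in GENCODE M21 on GRCm38, with starts 125 bases apart. The bases between both starts in RefSeq on GRCm38.p6 (chr11:84525535-84525659, plus strand) are shown because a single short interval faces 2 of the 4 marker genes. They are followed by the 250 bases before the RefSeq start of Ebf3 (chr7:137314446-137314695, minus strand), the marker found in most ET2 nuclei, and capitals mark GACGTCA, which is part of the palindromic cAMP response element.
Lhx1 to Lhx1os: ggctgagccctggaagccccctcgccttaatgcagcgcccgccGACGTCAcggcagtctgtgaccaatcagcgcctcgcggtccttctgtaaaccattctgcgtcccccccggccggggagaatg
Ebf3, upstream: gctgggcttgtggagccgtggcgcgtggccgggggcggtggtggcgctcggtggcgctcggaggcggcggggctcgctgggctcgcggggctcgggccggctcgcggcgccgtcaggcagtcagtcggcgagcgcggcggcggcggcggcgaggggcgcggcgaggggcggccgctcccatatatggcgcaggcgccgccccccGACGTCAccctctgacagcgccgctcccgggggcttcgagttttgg

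The Lhx1 to Lhx1os interval is 66.4% G and C with 12 CG pairs in 125 bases. The Ebf3 stretch is 80.0% G and C with 43 CG pairs, while the median of 32851 RefSeq windows of 250 bases is 52.4% and 6. GACGTCA, searched on both strands and chosen after these sequences had been seen, occurs once in the interval, which belongs to the windows of both Lhx1 and Lhx1os, and once before Ebf3. Of all 32851 windows, 2.78% hold it. The homeodomain motif TAATTA (in 4.84% of windows, both strands) and the palindromic Ebf motif, TCCC and GGGA with 2 bases between them (in 0.779%), had no match in either stretch. The RefSeq window of Uncx (chr5:139543648-139543897, plus strand) lies within the first exon of the GENCODE gene, which spans chr5:139543494-139548179, and is not printed. It holds TAATTA at 2 places and GACGTCA on both strands of 1 palindrome. Ebf3 itself spans chr7:137193673-137314445, minus strand.

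The 4 marker genes were found at similar levels in all 3 mice and were close to absent from the 6 other types. Values are UMIs per 1000000 UMIs (CPM) of a library, where a library is the sum of the nuclei of 1 type in 1 mouse. Ebf3 was at 393, 323 and 406 CPM in ET2 of mice 1, 2 and 3, and at most 8.08 CPM in the 18 libraries of the other types. Lhx1 was at 90.3, 90.3 and 93.8 CPM, with a highest other library of 0.856 CPM. Lhx1os was at 82.2, 51.6 and 76.9 CPM. Its highest other value, 6.19 CPM, was that of a single UMI in the M1 library of mouse 1, which holds 14 nuclei. Uncx was at 33.6, 21.4 and 35.3 CPM. The 18 other libraries held 3 Uncx UMIs together, which is a ratio of 853 over the pooled libraries with a 95% counting interval of 287 to 4181. For all 4 genes the ET2 libraries lay above every other library.

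**Figure D1:**
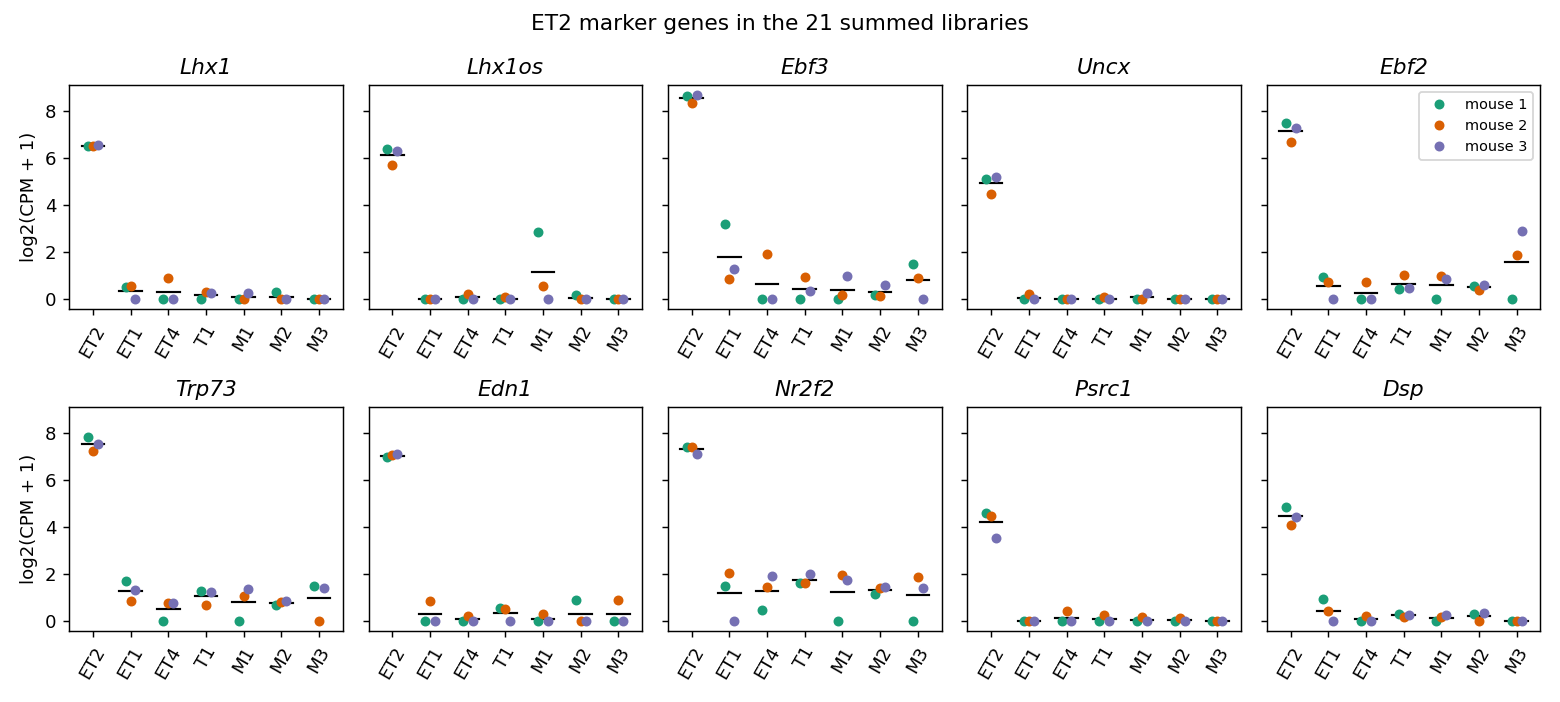
Level of the 4 marker genes and of 6 further ET2 genes in the 21 libraries, as log2(CPM + 1), by projection neuron type, where each point is the library of 1 mouse and each line the mean of the 3. In every panel the 3 ET2 points lie above all points of the other types, for Lhx1 at 90.3, 90.3 and 93.8 CPM against at most 0.856 CPM.

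The further genes given for ET2 by the study were also higher in ET2 than in every library of the other named types. Outside the projection neurons Nr2f2 had a UMI in 6.66% of nuclei and the other 5 in at most 0.587%, and the study's ET2 genes summed to 31.0 to 34.9 CPM there, where the 4 markers were at 0.556 to 0.963 CPM. Trp73, a relative of the tumour suppressor p53, was at 226, 148 and 183 CPM. Edn1, the precursor of the vasoconstrictor peptide endothelin-1, was at 123, 131 and 135 CPM. Nr2f2, the orphan nuclear receptor COUP-TFII, was at 165, 165 and 138 CPM. Ebf2 was at 176, 101 and 155 CPM. The low genes Psrc1 (a microtubule-associated protein), at 23.1, 20.9 and 10.6 CPM, and Dsp (desmoplakin, a desmosome protein), at 27.8, 16 and 20.5 CPM, were also above all other libraries. All of these genes, Lhx1os included, were chosen on the same nuclei, so that their levels describe ET2 and are not independent evidence for it.

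In single nuclei the markers were found unevenly. Ebf3 had a UMI in 90.7% of ET2 nuclei, Lhx1 in 55.2%, Lhx1os in 42.7% and Uncx in 20.4%. At least 1 of the 4 was found in 456 of 471 nuclei (96.8%, and by mouse 95.7%, 97.1% and 96.6%), at least 2 in 330 (70.1%) and all 4 in 30 (6.37%). In the 6 other types at least 1 was found in 0.681% of nuclei, and at least 2 in 7 of 5875 (0.119%). In the 24199 nuclei outside the projection neuron subclusters, of which 88.7% held a Gad1 UMI and which should lack the genes, the share with at least 1 was 0.554%. The median nucleus held 11893 UMIs in ET2, 14734 in the other types and 7487 outside. With each nucleus thinned to 3000 UMIs, which 464 of the 471 ET2 nuclei reach, the shares with at least 1 marker were 73.9%, 0.259% and 0.255%. The 15 ET2 nuclei with no marker UMI, 3.18%, stay in all sums, since membership is that of the deposited table.

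**Figure D2:**
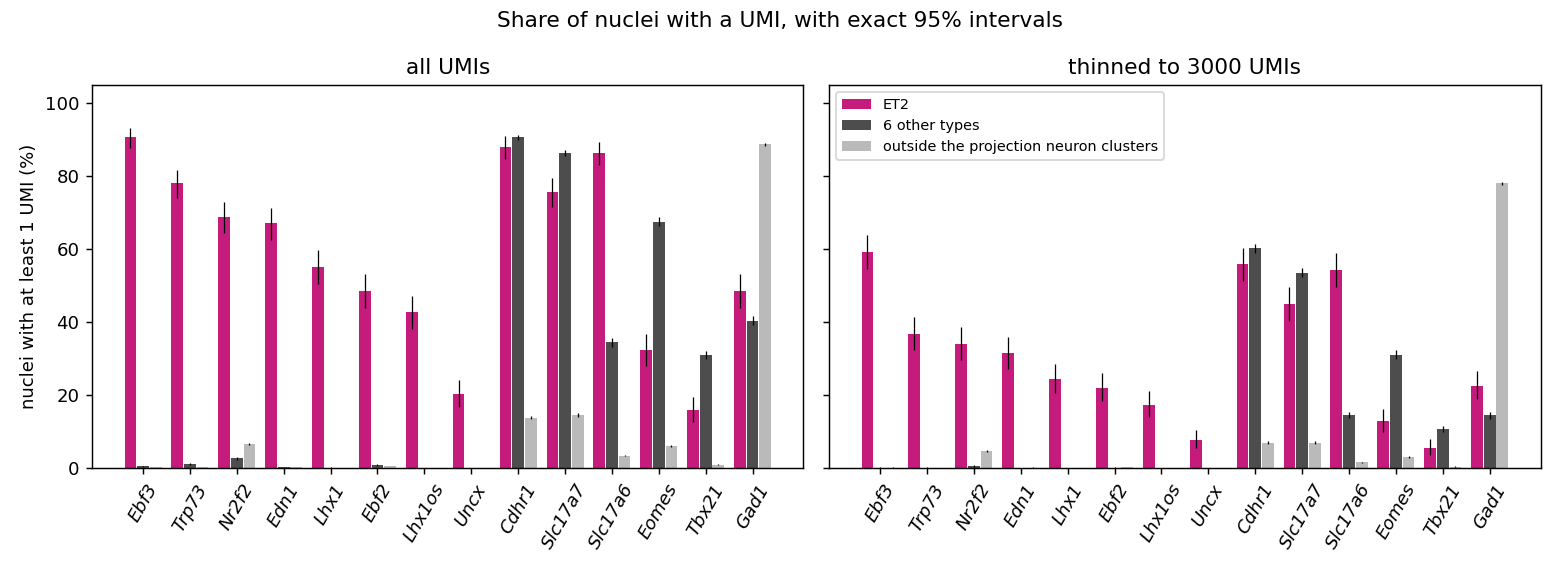
Share of nuclei with at least 1 UMI (percent), with exact 95% intervals that pool the nuclei of 3 mice and cover counting error only, of 8 ET2 genes, 5 projection neuron genes and the inhibitory gene Gad1, in ET2, the 6 other types and the nuclei outside the projection neuron clusters, with all UMIs (left) and thinned to 3000 UMIs per nucleus (right). Ebf3 is found in 90.7% of ET2 nuclei and 0.528% of the other types, Nr2f2 also in 6.66% of the nuclei outside, while Gad1 is found in 48.6% of ET2 nuclei, 40.4% of the other types and 88.7% outside.

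ET2 made up 4.45%, 7.35% and 5.51% of the projection neuron nuclei of subclusters 0 to 8 in mice 1, 2 and 3, a mean of 5.77 ± 1.47% (SD, n = 3 mice). The exact 95% intervals ran from 3.48% to 5.60%, from 6.58% to 8.17% and from 4.44% to 6.76%. The intervals cover counting error only, and that of mouse 2 does not overlap with that of mouse 1. The ET2 libraries held 864170, 3874635 and 1417470 UMIs, and the others 161593 to 16961469. An ET2 nucleus held a median of 3384, 3481 and 3854 genes, and 1500, 1555 and 1487 at 3000 UMIs per nucleus. Across 14696 genes the ET2 profiles of different mice correlated at r = 0.93 to 0.95. Those of ET2 and another type in the same mouse correlated at a mean r between 0.828 (ET4) and 0.859 (M2) over the 3 mice. These values describe genes of libraries from the same animals and carry no p. In mice 2 and 3 the highest r was with M1 (0.910 and 0.869, with at most 0.889 and 0.856 for the other types). In mouse 1, whose M1 library holds 14 nuclei, r with M1 was 0.761 and the highest was with M2 (0.841).

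Beyond the markers, ET2 differed from the mean of the 6 other types at 2031 of 14696 genes. A gene was called at an adjusted p under 0.05 in edgeR's quasi-likelihood test and an absolute log2 fold change above 1. Of the genes tested, 1123 (7.64%) were higher and 908 (6.18%) lower in ET2. The 3 ET2 libraries lay above all 18 others at 620 genes (4.22%) and below them at 291 (1.98%), and 457 higher and 230 lower genes were both called and free of overlap. Log2 fold changes below are ET2 minus the mean of the 6 types, with SE, and their median over all genes was 0.02. With nuclei thinned to 3000 UMIs 662 genes were higher and 655 lower of 10205. Against the summed nuclei of the 6 types in place of their mean, 960 were higher and 1312 lower.

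The leading 15 genes that were higher without overlap often lay near others of that kind in the genome. They were Lhx1os, Uncx, Lhx1, Gm10578, Ebf3, Edn1, Gm44812, Trp73os, Gcgr, Gm28258, Psrc1, Gm49027, 4930438E09Rik, Rbpms2 and Gm35842, with log2 differences from 9.85 down to 7.70. Of these, 12 had another gene of the same kind within 100000 bases. Beside Lhx1 and Lhx1os, the noncoding Gm10578 overlaps Ebf3 on the opposite strand, and it was at 13.9, 15.5 and 16.2 CPM against 1 UMI in all other libraries. Trp73os overlaps Trp73 and 4930438E09Rik overlaps Ebf2, also on opposite strands. Gm28258 lies 5303 bases from Nr2f2 (chr7:70351944-70366735, minus strand), and Gm35842 and Gm44812 lie further along chromosome 7, 19910 bases apart. Gm44812 was at 10.4, 13.7 and 4.94 CPM and had no UMI in the other types, at least 363-fold higher when 3 UMIs over the pooled other libraries are taken as the floor. Its call was lost with DESeq2, where its log2 fold change was 7.26 beside 8.52. Gcgr, the glucagon receptor gene, was at 3.47, 12.1 and 14.8 CPM and lies near Npb, the precursor of neuropeptide B, at 9.26, 28.4 and 13.4 CPM. Of 456 placed genes that were higher without overlap, 157 (34.4%) had another within 100000 bases, while 1205 of 14686 tested genes (8.21%) had such a gene nearby. Many of the 157 had only a partner whose position in the genome overlaps their own, and such partners are counted here. Genes that overlap share sequence, and the sources used here do not state whether strand was used in counting, so that a gene and its antisense partner are uncertain as separate results. Gm49027 overlaps Diablo on the same strand, where strand cannot tell the pair apart, and is uncertain as well. Rbpms2, an RNA-binding protein gene, had no such neighbour and was at 30.1, 27.4 and 31 CPM against at most 0.596 CPM elsewhere.

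The 10 leading lower genes were Gm5148, Gm48293, Mcidas, Gm20700, Rapgef3, Pou3f1, Tgfa, Gm28609, Ptprt and Klhl33. Ptprt, a receptor tyrosine phosphatase at synapses, was at 39.3, 82.3 and 39.5 CPM in ET2 and 957 to 2579 CPM in the other libraries (-4.73 ± 0.18). Tgfa, a ligand of the epidermal growth factor receptor, was at 2.31, 2.32 and 2.12 CPM against 33.5 to 147 CPM (-4.99 ± 0.25). Rapgef3, a cAMP-activated exchange factor, was at 0, 2.06 and 2.12 CPM against at least 51.9 CPM (-5.74 ± 0.27). Pou3f1, a POU-domain transcription factor, was at 0, 0.774 and 0 CPM, against 3.19 to 43.3 CPM. Gm5148 had no UMI in ET2, at least 13.6-fold lower with a floor of 3 UMIs over the ET2 libraries, 0.487 CPM. Mcidas, a regulator of multiciliated cells, had none either, at least 3.94-fold lower. Its call was lost without mouse 2, where its fitted log2 fold change was still -5.56. Gm20700 lies antisense within Kcnip4 and had 1 UMI in ET2. The ET2 libraries lay below all others at each of the 10 genes.

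All 4 Ebf genes tested were higher, but Ebf3 and Ebf2, for which ET2 lay above every other library, are a marker and an ET2 gene of the study, so that the count is no independent result. Ebf1 was at 602, 191 and 435 CPM in ET2, lower than in M1 (1840 ± 936 CPM, SD, n = 3, difference -2.32 ± 0.61), and against the summed nuclei of the 6 types its call was lost (0.33). Ebf4 was low, at 9.26, 5.42 and 4.23 CPM. Of 9 LIM homeobox genes and cofactors tested, 4 were higher and 1 lower, beside 7.64% and 6.18% of all genes. Without mouse 3, with thinned nuclei or against summed nuclei 2 were lower. Beside Lhx1, its close relative Lhx5 was at 20.8, 23.5 and 23.3 CPM, beside 16.6 ± 9.04 CPM in M1 (difference 0.05 ± 0.36, not called). Lhx9 was at 25.5, 12.6 and 26.8 CPM, beside 31.3 ± 7.23 CPM in M3. Ldb2, a cofactor that bridges LIM factors, was at 45.1, 24.8 and 16.2 CPM and above all other libraries (3.37 ± 0.32). Lhx2, the lower one, was at 2.31, 2.58 and 4.23 CPM against 6.99 to 68.1 CPM. ET2 thus held more Lhx1, Lhx5 and Lhx9 RNA and less Lhx2 RNA than the mean of the others.

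Of 40 other patterning factors, 13 were higher and 7 lower (median 0.10), beside 7.64% and 6.18% of all genes. The higher ones include Uncx, Trp73 and Nr2f2, which were chosen on the same nuclei, so that the count is no independent result. They also include Meis2, which is among the inhibitory neuron markers. Its call was lost without mouse 1 (1.59) and against summed nuclei (1.84). The leading members are the markers Uncx, Trp73 and Nr2f2, followed by Meis1, a homeodomain factor, at 35.9, 64.5 and 31 CPM and 24.9 ± 15.1 CPM in M1. Its partner Pbx3, which the study ties to both M1 and ET2 and which was named after its values had been seen, was at 605, 705 and 597 CPM. M1 held 385 ± 81.8 CPM of Pbx3, and the difference from M1 was 0.66 ± 0.29, not called. Tbr1 and Eomes, T-box factors of the output neurons, went opposite ways. Tbr1 was at 86.8, 86.7 and 81.8 CPM (2.58 ± 0.16), and Eomes at 35.9, 51.1 and 48 CPM (-1.51 ± 0.18). Tbx21, a marker of mitral and tufted cells, was at 30.1, 17.6 and 17.6 CPM and not called (0.00 ± 0.16). Against the summed nuclei of the 6 types its value was -1.44.

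The general markers of OB output neurons were present. Cdhr1, a protocadherin-related gene of mitral and tufted cells, was at 351, 296 and 337 CPM (-0.14 ± 0.10), Slc17a7, the vesicular glutamate transporter 1, at 226, 189.7 and 269 CPM (-0.27 ± 0.15), Reln at 1939, 1569 and 1872 CPM (0.79 ± 0.12), and Thy1 at 70.6, 65.0 and 77.6 CPM (0.09 ± 0.12), none of them called. Without M1 among the other types the value for Reln was 1.04, beyond the threshold of 1. Slc17a6, the vesicular glutamate transporter 2, was at 268, 258 and 248 CPM and higher (2.20 ± 0.11), with a UMI in 86.4% of ET2 nuclei and 34.5% of the others. Genes that the study gives for whole classes of tufted cells were split. Shisa6, an AMPA receptor partner shared by external tufted types, was at 2114, 2112 and 2186 CPM, between ET1 (488 ± 225 CPM) and ET4 (4381 ± 183 CPM). Gabbr2, a GABA-B receptor subunit, was at 71.7, 83.6 and 69.8 CPM. Pip5k1b, a phosphoinositide kinase gene of the same group, was at 48.6, 22.7 and 26.8 CPM, far under ET1 (639 ± 141 CPM) and ET4 (1953 ± 68.8 CPM), and its lower call was lost without mouse 2 (-0.99). Astn2, shared by tufted types, was at 2981, 3045 and 3240.3 CPM (1.82 ± 0.13). Zbtb20, a transcription factor also shared by them, was at 414, 362 and 317 CPM, under T1 (1224 ± 94.6 CPM) and within the 244 to 491 CPM of the mitral types. Fam19a2 and Tnfaip8 are genes shared by mitral types. Fam19a2 was at 53.2, 55.7 and 42.3 CPM, lower than the mean of the 6 types (-1.60 ± 0.26) and not called against the other tufted types (0.23 ± 0.26). Tnfaip8 was at 98.4, 56.0 and 71.3 CPM, above every library of the other tufted types (1.28 ± 0.17) and below every library of M1 (-2.40 ± 0.20). Shisa6, Gabbr2 and Astn2 thus went with the classes of the study, and Pip5k1b and Zbtb20 did not. Of the mitral genes, Fam19a2 did not differ by a call from the other tufted types, and Tnfaip8 lay between them and M1. The study chose these genes on the same nuclei, so that they are no independent evidence for the label.

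Receptors for glutamate and GABA differed member by member. Of 7 metabotropic glutamate receptors tested, 3 were higher and none lower (1 lower against summed nuclei), beside 7.64% and 6.18% of all genes. Grm5 was at 625, 811 and 656 CPM, above the 128 CPM of the highest other library (4.19 ± 0.19). Grm8, a presynaptic receptor, was at 5775, 5560 and 6042 CPM (2.24 ± 0.10). Against M1 alone Grm5 was higher and Grm8 was not called. Of 27 ionotropic receptors and partners, 4 were higher and 7 lower. The kainate receptor subunit Grik4 was at 301, 265 and 386 CPM (5.36 ± 0.14), while the AMPA receptor subunit Gria4 was at 420.1, 412 and 329 CPM (-2.46 ± 0.22) and the delta receptor Grid1 at 39.3, 41.3 and 26.8 CPM (-3.51 ± 0.19). Of 18 GABA receptor genes, 3 were higher and 3 lower. Gabrg3, a GABA-A receptor gamma subunit, was at 1378, 1356 and 1462 CPM against at most 605 CPM (5.36 ± 0.20), and the alpha subunit gene Gabra3 was at 38.2, 35.9 and 14.1 CPM (-3.15 ± 0.21).

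**Figure D3:**
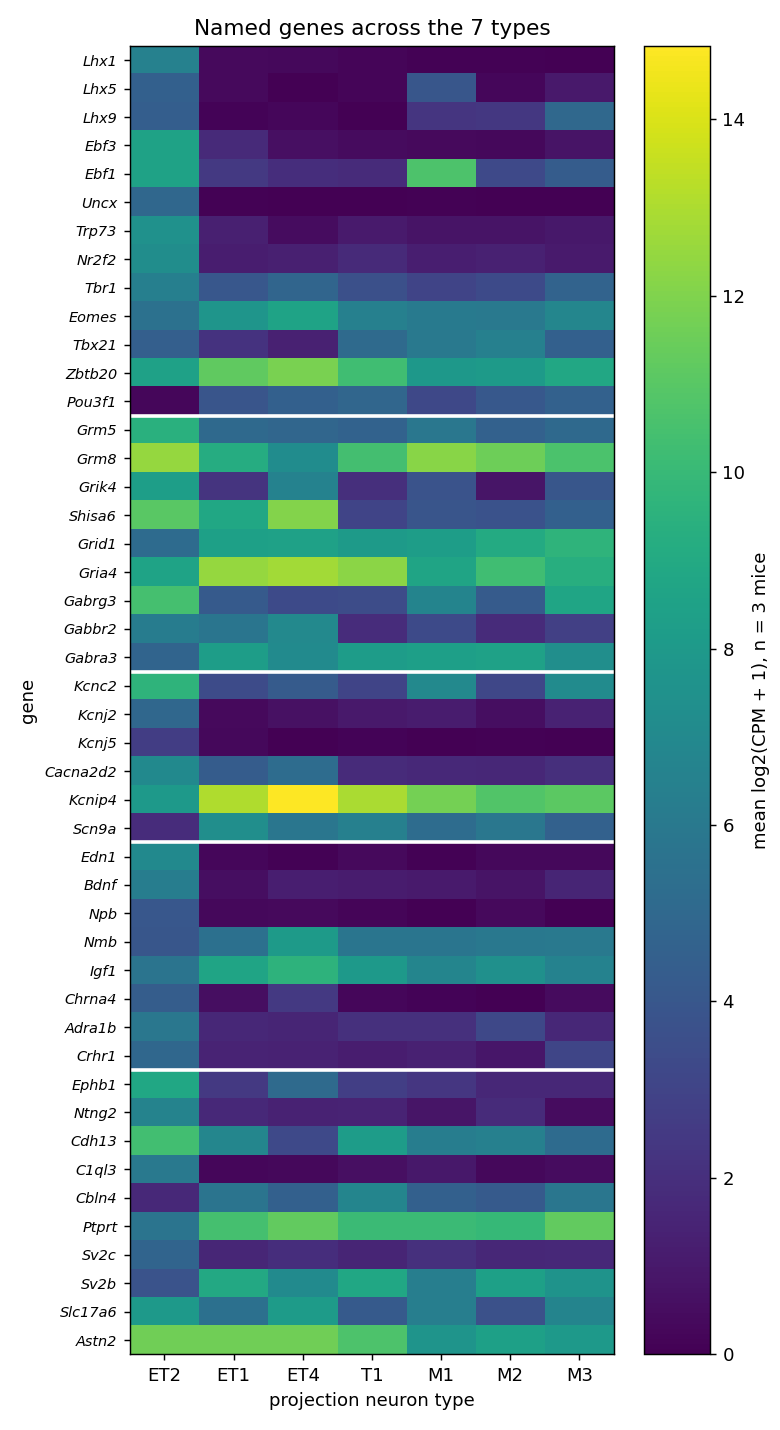
Mean log2(CPM + 1) over the 3 mice (colour) of named genes (rows) in each of the 7 types (columns), with white lines between transcription factors, receptors for glutamate and GABA, channels, secreted factors and their receptors, and adhesion, release and guidance genes. ET2, in the first column, is brighter than the others for Grm5 (697 CPM on average) and darker for Ptprt (53.7 CPM).

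Of 61 potassium channel genes tested, 22 (36.1%) were higher and 7 (11.5%) lower, beside 7.64% and 6.18% of all genes. Their median log2 fold change was 0.17. Kcnc2, a Kv3 channel known from fast-spiking neurons, was at 816, 781 and 833 CPM against at most 170.3 CPM (4.94 ± 0.12). The inward rectifiers Kcnj2, at 28.9, 27.4 and 33.9 CPM (4.90 ± 0.30), and Kcnj5, at 5.79, 3.87 and 7.05 CPM, were higher as well. Kcnip4, an auxiliary subunit of A-type channels, was at 299.7, 328 and 182 CPM against 1561 to 32436 CPM (-4.44 ± 0.28). Against summed nuclei 11 potassium channel genes were lower. Of 36 sodium, calcium and other cation channel genes, 9 were higher and 5 lower, and 10 were lower against summed nuclei. Cacna2d2, a calcium channel subunit, was at 137, 139 and 121 CPM (4.06 ± 0.20). The sodium channel subunit Scn4b was low, at 5.79, 2.84 and 7.76 CPM, and Scn9a was at 6.94, 2.84 and 0.706 CPM (-4.57 ± 0.37).

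Among 29 genes of peptides and secreted factors, 6 were higher and 2 lower, beside 7.64% and 6.18% of all genes. With thinned nuclei 2 were higher, and 6 were lower against summed nuclei and 5 without M1. Bdnf, brain-derived neurotrophic factor, was at 82.2, 67.9 and 86.8 CPM (5.35 ± 0.34). Nmb, neuromedin B, was at 17.4, 11.6 and 16.2 CPM (-2.44 ± 0.28) and Igf1 at 46.3, 64.8 and 45.9 CPM (-2.11 ± 0.19). The endothelin genes other than Edn1 were low. The converting enzyme gene Ece1 was at 48.6, 34.1 and 31 CPM (2.49 ± 0.19), Ece2 at 3.47, 3.87 and 4.23 CPM and the receptor gene Ednrb at 11.6, 3.87 and 0.706 CPM, and the calls of the latter pair were lost without mouse 3 (Ece2, 1.39) and without mouse 1 or M1 (Ednrb, 0.67 and 1.23). Without mouse 2, 2 endothelin genes were higher in place of 4. Of 41 receptors for peptides and modulators, 12 were higher and 4 lower, but 7 were higher without mouse 2 or with thinned nuclei, and against summed nuclei 7 were higher and 7 lower. Chrna4, a nicotinic receptor subunit, was at 17.4, 14.5 and 30.3 CPM (5.62 ± 0.40), Adra1b, an adrenergic receptor, at 72.9, 39.2 and 69.1 CPM (3.83 ± 0.25) and Crhr1, the receptor for corticotropin-releasing hormone, at 25.5, 28.4 and 36.7 CPM (3.52 ± 0.34).

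Of 55 axon guidance genes, 21 (38.2%) were higher and 8 (14.5%) lower (5 when libraries were scaled by their total alone). Beside these stand 7.64% and 6.18% of all genes. The median was 0.54, and 7 of the 21 were above all other libraries. Against M1 alone, 14 were higher and 12 lower. Ephb1, a receptor for ephrin-B ligands, was at 450.1, 389 and 561 CPM against at most 37.8 CPM (6.07 ± 0.15). Ntng2, a netrin-G anchored to the membrane, was at 82.2, 73.6 and 148 CPM (5.92 ± 0.21). Robo1, a receptor for Slit proteins and named after its values had been seen, was at 45.1, 97.3 and 47.3 CPM against 182 to 2853 CPM (-3.83 ± 0.25). Of 34 cadherins and protocadherins, 11 were higher and 5 lower, and 5 and 8 against summed nuclei. Cdh13 was at 1347, 1293 and 1261 CPM (4.19 ± 0.14) and Cdh18 at 1022, 838 and 999.7 CPM (2.83 ± 0.09). Of 56 synaptic adhesion genes, 8 were higher and 10 lower. C1ql3, a secreted synapse organiser, was at 67.1, 63 and 60.7 CPM (6.53 ± 0.30), and Cbln4, a cerebellin, at 4.63, 5.42 and 0 CPM (-3.27 ± 0.34).

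Release and calcium-binding genes were split. Of 41 vesicle release genes, 6 were higher and 6 lower, beside 7.64% and 6.18% of all genes. The synaptic vesicle genes Sv2c, at 22, 29.7 and 28.2 CPM (3.08 ± 0.29), and Sv2b, at 28.9, 15 and 4.94 CPM (-4.01 ± 0.26), went opposite ways. Of 15 calcium-binding genes, 3 were higher and 2 lower, and 1 each way with thinned nuclei or, of the lower, without any 1 mouse. Caln1, calneuron, was at 263, 286 and 216 CPM (4.79 ± 0.11), and Calb1, calbindin, at 4.63, 10.6 and 8.47 CPM. Of 6 desmosome genes, Dsp was higher and Dsg2 lower. Of 15 genes induced by activity, Bdnf and Fosl2 were higher and none lower. The call of Fosl2 was lost without mouse 1, where its log2 fold change was 1.36. The genes given for the other types went as follows. Of 7 ET1 genes 4 were lower and none higher. Of 11 M2 genes 6 were lower (2 without mouse 2 or with thinned nuclei) and 1 (Smpx) higher, but Smpx turned to -1.43 against summed nuclei, and its call was also lost with DESeq2 (1.73), without mouse 1 (3.17), without mouse 2 (0.81), without the M1 library of mouse 1 (2.35) and without M1 (2.18). With thinned nuclei no M2 gene was higher. Of 8 T1 genes tested 3 were lower (6 against summed nuclei) and 1 (Cacna1g) higher. Of 7 ET4 genes 3 were lower (1 without mouse 2) and 1 (Grik4) higher, and of 10 M3 genes 2 were lower (1 without M1). Of 14 M1 genes 6 were higher and none lower, but against summed nuclei 1 was higher and 2 lower, and against M1 itself none was higher and 13 were lower, with a median of -4.23. These lists, too, were chosen on the same nuclei.

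**Figure D4:**
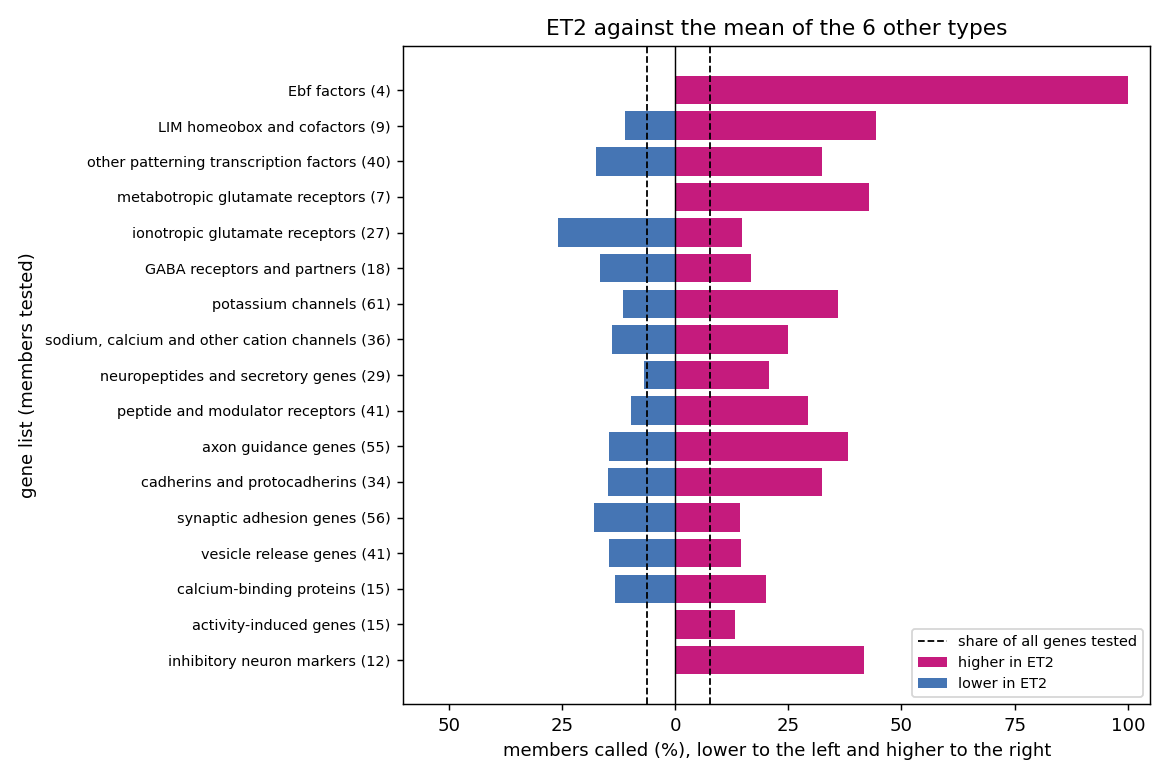
Percent of the tested members of each gene list that were called higher (right) or lower (left) in ET2 against the mean of the 6 other types, with the number tested in brackets and the shares over all 14696 genes, 7.64% and 6.18%, as dashed lines. Axon guidance genes (38.2% higher) and potassium channels (36.1% higher) reach past the right line, and vesicle release genes have 14.6% in each direction.

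Markers of inhibitory neurons were higher in sum in ET2 than in each of the 6 other types of the same mouse. Their sum was 753, 1173 and 277 CPM in ET2 of mice 1, 2 and 3, against at most 454 (M3), 774 (M1) and 264 CPM (M3) in the other types, and 5983 to 6627 CPM in the nuclei outside. Of 12 such genes tested, 5 were higher and none lower, beside 7.64% and 6.18% of all genes. Without mouse 1, 1 was higher, and against summed nuclei 2 were. Gad1, which makes GABA, was at 106, 162 and 44.4 CPM, and Slc32a1, its vesicular transporter, at 25.5, 46.2 and 7.05 CPM. Among the ET2 libraries these markers were highest in mouse 2 and lowest in mouse 3, and their part in the results above was not tested. Of the glial lists, 2 of 6 oligodendrocyte genes were higher (none without mouse 2 or with thinned nuclei). Of 6 astrocyte genes 1 (Slc1a2) was higher (2 against summed nuclei) and 1 lower (none lower without mouse 2 or 3 or with thinned nuclei). Of 4 ensheathing glia genes 2 were higher (1 without mouse 1, against summed nuclei or with thinned nuclei). Of 4 microglia and 3 endothelial genes none was called by edgeR. The summed astrocyte markers were at 263, 254 and 309 CPM in mice 1, 2 and 3, in each mouse above all other types, of which M1 was highest at 217, 160 and 270 CPM. Their part in the results was not tested either. Aqp4 was at 0, 2.84 and 6.35 CPM and Gfap at 0, 3.10 and 0.705 CPM. Periglomerular markers were at 104 to 177 CPM against 22.5 to 264 CPM. Of 3 tested, 1 (Calb1) was higher and none lower (2 higher without M1, none with thinned nuclei). Against the other tufted types Calb2 was higher as well. Th was at 8.10, 8.52 and 4.94 CPM and not called. The dopamine transporter Slc6a3, which was not tested, was at 0, 0.258 and 0 CPM. Immature neuron markers were at 201 to 275 CPM against 144 to 297 CPM, with 2 of 5 higher (1 with thinned nuclei). Of 2 precursor genes of oligodendrocytes 1 was lower. The sort gated against doublets, and no doublet caller was run.

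Set against the other tufted types alone (the mean of T1, ET1 and ET4), ET2 was higher at 1358 genes (9.24%) and lower at 1134 (7.72%). The leading higher genes without overlap were Lhx1os, Uncx, Edn1, Gm10578 and Nhlh2. Nhlh2, a helix-loop-helix transcription factor of neurons, was at 13.9, 20.4 and 14.1 CPM in ET2 and at 0 CPM in ET1 and ET4. The leading lower genes Hapln3, Gm12027, Gm26755, Gm17322 and Cd28 had no UMI in ET2. Hapln3, which links proteoglycans to hyaluronan in the extracellular matrix, was at least 57-fold lower with the floor of 3 UMIs, and the other 4 at least 9.62-fold. The axon guidance genes were higher at 25 of 55 and lower at 10. All 7 ET1 genes of the study were lower here. In this comparison Eomes was lower (-2.16 ± 0.19), and Tbr1 (2.25 ± 0.17), Slc17a6 (2.01 ± 0.12), Reln (1.81 ± 0.13) and Tbx21 (1.55 ± 0.35) were higher.

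Against the mitral type M1, with which ET2 shares Lhx5, 878 genes (5.97%) were higher and 1096 (7.46%) lower in ET2. The axon guidance genes were higher at 14 of 55 (25.5%) and lower at 12 (21.8%). Synaptic adhesion genes were higher at 4 of 56 and lower at 23, and potassium channel genes higher at 16 of 61 and lower at 12. Npb and the ET2 markers led the higher genes, and Fam19a3, without a UMI in ET2, was at least 40.7-fold lower.

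Mitral and tufted types were also compared in a fit that left ET2 out, to place ET2 on a measure that its own libraries did not set. This fit called 1788 of 15038 genes (11.9%), 1034 higher in the mitral and 754 higher in the tufted types. At 686 of these genes, 38.4%, ET2 lay nearer to the tufted than to the mitral mean. By mouse the shares were 40.8%, 35.9% and 40.9%, a mean of 39.2 ± 2.87% (SD, n = 3), so that ET2 lay nearer to the mitral mean at most of these genes in each mouse. Of the genes higher in mitral types ET2 was nearer to the tufted mean at 43.8%, and of those higher in tufted types at 30.9%. Each of the other types, left out and placed in the same way, gave 78.5% (ET1), 61.4% (ET4), 45.9% (M2), 40.6% (T1), 39.8% (M3) and 26.1% (M1). The share of ET2 lay between those of M3 and M1, but the tufted type T1, at 40.6%, was within the 35.9% to 40.9% of ET2 by mouse. The mitral type M2 was above T1, so that this share does not set mitral apart from tufted types. Differences between these shares carry no test. Without M1 among the mitral types the share for ET2 was 43.5%.

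**Figure D5:**
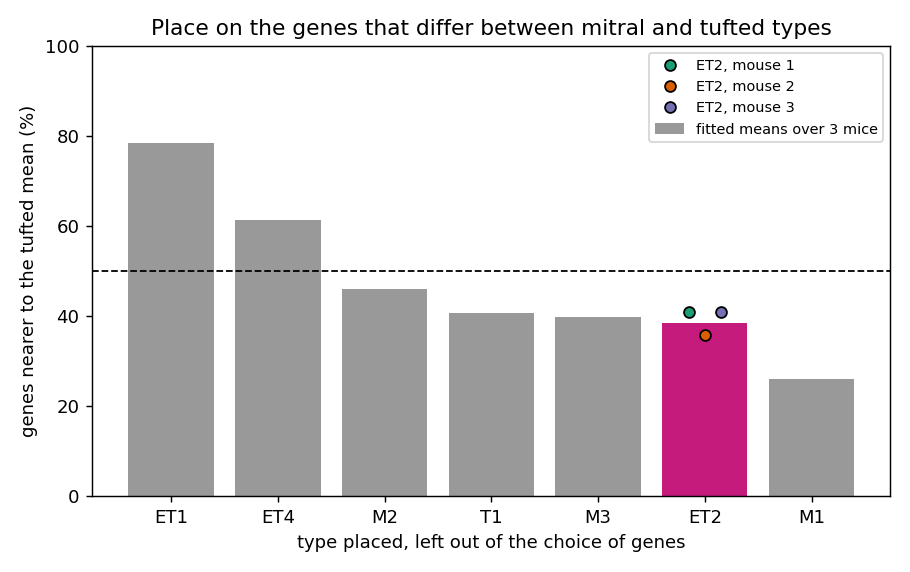
Percent of the genes differing between mitral and tufted types at which a type left out of that choice lies nearer to the tufted mean (bars, from the fitted means over 3 mice), with the value of each mouse for ET2 as points and a dashed line where both means are equally often nearer. ET2, at 38.4%, lies beside M3 (39.8%) and T1 (40.6%), while ET1 is at 78.5% and M1 at 26.1%.

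ET2 nuclei also varied among themselves. For each of 8273 genes with a UMI in at least 10% of the ET2 nuclei of each mouse, the variance of Pearson residuals was taken within each mouse, a measure of spread beyond counting error, and genes were ranked by its lowest value over the 3 mice, whose median was 1.41. The leading genes were Pcdh9 (16.1), Galntl6 (14.4), Pcdh7 (11.9), Cntn5 (11.7), Grm5 (11.7), Ptprd (11.1), Unc5d (10.7) and Cntnap2 (10.2). Ptprd and Cntnap2 had a UMI in at least 98.6% of the nuclei of each mouse, so that their spread lay in the number of UMIs. Grm5 had a UMI in 72.5%, 73% and 64.4% of ET2 nuclei in mice 1, 2 and 3, and up to 37, 84 and 90 UMIs in 1 nucleus. Ebf1 (8.92) had a UMI in 40.6%, 29.5% and 43.7% of nuclei. The vomeronasal receptor gene Vmn1r209 (9.31) had one in 55.1%, 60% and 49.4%, with up to 62, 135 and 100 UMIs in 1 nucleus. Grm5, Ebf1 and Vmn1r209 thus had many UMIs in some ET2 nuclei and none in others of the same mouse. Gene length was not taken into account, and no subdivision of the 471 nuclei was made.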

How the data were processed

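The deposited tables hold, for each of 3 mice, raw UMI counts per gene and barcode, made by the authors with Cell Ranger 3.0.2 (file headers), and a list of retained nuclei with mouse, cluster and subcluster. The authors kept nuclei with 1000 genes or more and 5% of mitochondrial UMIs or less, and the deposited percent of mitochondrial UMIs served only to describe nuclei. The 8 other columns of that list were not used.

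Counts were summed by type within each mouse (21 libraries) and tested with edgeR 4.0.16 (filterByExpr, TMM, quasi-likelihood test, no covariate, Benjamini-Hochberg over all genes) in R 4.3.3, a script first tested on simulated data. SE is the log2 fold change over the square root of F. CPM carries no TMM factor. Positions are from GENCODE M21 (31011 of 31055 identifiers matched). The members and gene lists were chosen with earlier results of these data known. Named genes were the 15 highest and 10 lowest without overlap, 5 each way in the other comparisons up to 4 called members per list, and the study's ET2 and shared genes and the projection neuron markers whatever their result. Lhx2, Pbx3, Robo1, Gad1, Slc32a1, Aqp4, Gfap, Slc6a3, Th and Calb2 lie outside this rule. So do the genes given for their spread among nuclei, taken by rank except Ebf1 and Vmn1r209. Some genes that the rule takes in are not reported here. Of the listed symbols, 94 were not tested, for too few UMIs or for having no row of that name.

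The mouse pairs the libraries, since those with the same number come from 1 animal. Deviations of the ET2 libraries from the type mean correlated with those of the same mouse at a mean r of 0.0310, 0.154 and 0.100 (6 pairs each) and with those of other mice at -0.0173, -0.0682 and -0.0554. No block is stated in the study's methods, so that a fit with one was tried as an alternative, beside other scalings, filters, references and depths. Of the barcodes, 82 occur in more than 1 mouse, 4 of them in ET2.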

Additional observations from a re-analysis of the deposited data

Results flagged for a closer look

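RNA of the ET2 markers was also found in nuclei outside subcluster 6. All 471 ET2 nuclei belong to the broader cluster 14 of the deposited table. The cluster holds 18 further nuclei, all from mouse 2, whose summed level of Lhx1, Ebf3, Uncx and Lhx1os was 222.6 CPM, with at least 1 marker UMI in 17 of the 18 and 84 UMIs in all. Of these 18 nuclei, 7 are in subcluster 9, 5 in subcluster 8 and 4 in subcluster 2, which entered no comparison above, and 1 each in subclusters 0 (T1) and 5 (M1), which did. In mouse 2 the summed level was 30.6 CPM in subcluster 8 and 21.8 CPM in subcluster 9, above the highest library of the 6 other named types, at 8.52 CPM, and it was 0 CPM in both in mice 1 and 3. All 28 marker UMIs of subcluster 8 and all 33 of subcluster 9 in mouse 2 lie in the 5 and 7 nuclei of cluster 14, so that these levels are not separate findings. The 18 nuclei held 3158 CPM of inhibitory neuron markers, against 1173 CPM in ET2 of mouse 2, and 517 CPM of astrocyte markers against 254 CPM. No doublet caller was run, and whether the 18 are doublets was not tested.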

How the results depend on the processing

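Of the counts of genes called, those against the 6 other types ran from 1317 to 2407 over the alternatives, those against the other tufted types from 2039 to 2857 and those against M1 from 1441 to 2241. With nuclei thinned to 3000 UMIs 1317 genes were called, 662 of them higher, of 10205 tested, where fewer genes passed the filter. Leaving out 1 mouse at a time gave 1682 to 1964 genes against the 6 types (931 to 1104 higher, 751 to 860 lower), 2039 to 2354 against the other tufted types (1106 to 1321 and 933 to 1060) and 1441 to 1928 against M1 (623 to 828 and 818 to 1100). The share of higher genes among those called was 55.3% and fell to 42.3% against the summed nuclei of the 6 types, where types with more UMIs weigh more. Under that setting Olfr1259 turned from 2.92 to -1.63, Smpx from 2.34 to -1.43 and Tbx21 from 0.00 to -1.44, and the cause was not tested. DESeq2 kept 1084 of the 1123 higher and 869 of the 908 lower genes. Without mouse 2, 848 higher and 631 lower genes were shared with the main calls. Against summed nuclei 837 and 872 were shared, and with thinned nuclei 586 and 566. Of 1698 single gene values, 1640 kept direction and call. The ET2 share was 1.5% of all listed nuclei, by the larger denominator, and 4.98% to 6.43% without 1 mouse. ET2 nuclei held 2130 genes at 5000 UMIs and 3573 unthinned, as more UMIs show more genes, and 1494 to 1528 at 3000 UMIs without 1 mouse. The share of genes nearer to the tufted types was 43.5% without M1, the cause not tested, and 37.2% to 39.6% without 1 mouse.

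With the mouse as a replicate block 2068 genes were called against the 6 types, 2550 against the other tufted types and 2085 against M1, beside 2031, 2492 and 1974 without it. The block ended no call of a named gene. It moved the lower members of the M1 list from 0 to 2 and of the calcium-binding list from 2 to 1. Depth limits the low genes, since 3 UMIs over the ET2 libraries are 0.487 CPM, and the M1 library of mouse 1 rests on 14 nuclei.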
